A study of Homo sapiens with 6 samples.

Results

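The set described here holds 10 genes whose transcripts were lower under dihydrotestosterone (DHT, a potent androgen) in BicR prostate cancer cells or in both cell lines of the study: DDC, OPRK1, SI, LRRN1, CBLN2, PEG10, TNC, SLC5A1, AGT and COLEC12. They were picked by symbol from a table of 21512 genes because of those lower values, so the difference between DHT and ethanol is a description of the choice and was not tested. All 10 passed a minimum mean of 20 counts over the 6 libraries, as did 13885 genes in all. The members were at 75 to 3163 counts in the BicR library under DHT, and 0 of the 10 were at 0 there, so "lowered" describes them and "silenced" does not.

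Total RNA was sequenced on the SOLiD 3 Plus platform from LNCaP, an established androgen-responsive line of human prostate cancer, and from BicR, which the labels describe only as prostate cancer without saying how it was derived. Before treatment both lines spent 3 days in phenol red-free medium with 2.5% serum stripped by charcoal and dextran, which removes most steroid hormones. Each line then received ethanol (the vehicle), 10 nM DHT or 1 µM bicalutamide, an antiandrogen, for 24 h. There was 1 library for each line and treatment, with 42162723 to 55917016 counts. Levels are given in CPM, counts per 1000000 of a library size scaled by TMM, edgeR's trimmed mean of M-values. Ratios carry exact 95% intervals that cover counting error only, since no library had a replicate. In bulk RNA, fewer cells expressing a gene and less of its RNA per cell cannot be told apart.

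Androgens act in prostate cells by hormone-dependent transcription, which raises the transcripts of many prostate genes and lowers those of others. Androgen-repressed genes are known to be high in cells deprived of hormone and low when androgen is present. Bicalutamide blocks the action of androgens, so cells under bicalutamide and cells under vehicle both lack an active androgen.

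The members do different work. DDC is aromatic L-amino acid decarboxylase, which makes dopamine and serotonin from their precursors, and OPRK1 is the kappa opioid receptor. SI is sucrase-isomaltase and SLC5A1 is the sodium-glucose cotransporter SGLT1, both of the brush border of the small intestine. LRRN1 is a neuronal membrane protein with leucine-rich repeats, and CBLN2 is a secreted cerebellin that organizes synapses by binding neurexins. PEG10 is an imprinted gene derived from a retrotransposon. TNC is the matrix protein tenascin C, AGT is angiotensinogen, the precursor of the angiotensin peptides, and COLEC12 is a collectin that acts as a scavenger receptor.

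The 250 bases before the transcription start are printed for SI, DDC, CBLN2 and LRRN1, the members with the lowest ratios of DHT to ethanol in BicR, and for SLC5A1, the other intestinal member. They come from the RefSeq promoter table of GRCh38.p14, which held 9 starts of 8 members. The counts rest on another build, hg19. SI lies at chr3:165078497-165078746 (minus strand), DDC has starts with upstream windows at chr7:50565406-50565655 and chr7:50561072-50561321 (both minus), CBLN2 lies at chr18:72544343-72544592 (minus), LRRN1 at chr3:3799181-3799430 (plus) and SLC5A1 at chr22:32043011-32043260 (plus). Each is written 5′ to 3′ on the gene's strand, in lower case. Capitals mark matches, on either strand, to AGAACA (the core of an androgen response element) and TTTATG (bound by intestinal CDX factors).
SI: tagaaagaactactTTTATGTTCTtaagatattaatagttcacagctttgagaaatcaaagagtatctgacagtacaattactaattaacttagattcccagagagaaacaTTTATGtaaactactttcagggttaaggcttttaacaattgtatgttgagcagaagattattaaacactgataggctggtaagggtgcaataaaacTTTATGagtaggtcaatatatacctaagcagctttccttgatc
DDC, upstream start: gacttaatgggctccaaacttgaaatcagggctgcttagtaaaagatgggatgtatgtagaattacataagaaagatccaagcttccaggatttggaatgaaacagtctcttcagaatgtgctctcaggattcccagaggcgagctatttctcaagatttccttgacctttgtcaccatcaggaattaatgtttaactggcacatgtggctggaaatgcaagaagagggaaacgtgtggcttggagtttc
DDC, downstream start: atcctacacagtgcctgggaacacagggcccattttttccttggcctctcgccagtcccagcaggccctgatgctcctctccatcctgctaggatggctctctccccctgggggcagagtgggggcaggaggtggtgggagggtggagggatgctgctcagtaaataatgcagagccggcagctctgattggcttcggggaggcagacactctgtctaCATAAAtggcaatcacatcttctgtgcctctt
CBLN2: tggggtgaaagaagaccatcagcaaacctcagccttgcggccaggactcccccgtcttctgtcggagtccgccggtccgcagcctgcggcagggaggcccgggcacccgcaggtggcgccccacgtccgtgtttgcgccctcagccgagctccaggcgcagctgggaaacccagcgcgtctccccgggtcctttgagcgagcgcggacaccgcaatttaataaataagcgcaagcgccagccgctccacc
LRRN1: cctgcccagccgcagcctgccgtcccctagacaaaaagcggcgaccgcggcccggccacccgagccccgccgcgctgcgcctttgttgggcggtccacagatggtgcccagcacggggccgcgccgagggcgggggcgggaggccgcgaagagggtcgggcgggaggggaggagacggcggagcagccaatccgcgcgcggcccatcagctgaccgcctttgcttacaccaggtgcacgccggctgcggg
SLC5A1: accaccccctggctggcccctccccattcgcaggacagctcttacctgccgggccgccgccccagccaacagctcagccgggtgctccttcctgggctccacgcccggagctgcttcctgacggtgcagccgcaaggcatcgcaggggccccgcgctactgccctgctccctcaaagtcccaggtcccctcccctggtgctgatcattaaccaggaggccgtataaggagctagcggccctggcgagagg

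These windows share little beyond being upstream of a member. The GC content was 31.6% in SI and 42.4% at the upstream DDC start, and 58% at the downstream start. It was 67.2% in CBLN2, 68.8% in SLC5A1, 75.6% in LRRN1 and 78.4% in COLEC12, so the windows lay on both sides of the quartiles of all 35116 promoters in the table (46.4% and 68%, median 58%). Of the 8 members, AGAACA was in the window of SI alone, at 232 to 227 bases before the start, where it overlaps a TTTATG match at 236 to 231. AGAACA was in 12.4% of all promoters. The full palindromic element, AGAACA and TGTTCT with 3 bases between them, was in 0 of the 9 windows and in 1 promoter of the table.

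Letters tied to intestinal transcription were in the window of SI and not in that of SLC5A1. TTTATG was in SI (3 matches), at the downstream DDC start and in TNC, against 9.64% of all promoters. The TATA box TATAAA was in AGT alone, 30 to 25 bases before the start, and in 10.7% of all promoters. CCAAT was at the downstream DDC start and in LRRN1, against 32% of all promoters. Motifs were searched on both strands and a match is a run of letters, not a bound site.

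In BicR all 10 members were lower under DHT than under ethanol, and their counting intervals stayed below a ratio of 1. On the scale of log2(CPM + 1), 9 of the 10 were at least 2-fold lower, against 0.922% of the genes tested, and 0 were at least 2-fold higher (1.45%), a contrast that the choice of members fixed. Their median difference was -1.47 on that scale, and that of all genes tested was 0.0018. PEG10 lay just inside the 2-fold limit and TNC, at -0.98, just outside it.

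SI had the lowest difference of DHT from ethanol on log2(CPM + 1) of all 13885 genes tested in BicR. It was at 43.4 CPM under ethanol, 42.9 under bicalutamide and 3.53 under DHT in BicR, 12.3-fold lower than under ethanol (95% counting interval 10.4 to 14.6). DDC was at 64.2 CPM under ethanol, 61.8 under bicalutamide and 8.32 under DHT, 7.72-fold lower (6.91 to 8.65). CBLN2 was at 154 CPM under ethanol, 153 under bicalutamide and 22.7 under DHT, 6.78-fold lower (6.34 to 7.26). DDC ranked 3, CBLN2 4 and LRRN1 6 on the same log scale, counted from the lowest difference. LRRN1 was at 424 CPM under ethanol, 437 under bicalutamide and 75.4 under DHT, 5.62-fold lower (5.42 to 5.84). OPRK1 was at 15.5 CPM under ethanol, 16.7 under bicalutamide and 4.55 under DHT, 3.39-fold lower (2.9 to 4). For these 5 genes the ethanol and bicalutamide libraries of BicR lay close together, and the DHT library lay far below both.

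The other 5 members were 2.27-fold to 2.87-fold lower under DHT than under ethanol in BicR. COLEC12 was at 31.7 CPM under ethanol, 30.7 under bicalutamide and 11.7 under DHT. AGT was at 16.6, 19.8 and 7.32 CPM in the same order. SLC5A1 was at 6.49, 8.16 and 2.26 CPM, which is 95 counts under DHT. In each of these 3 the DHT library was again the lowest, by a margin smaller than that of SI. PEG10 was at 7.41 CPM under ethanol, 5.35 under bicalutamide and 3.08 under DHT. TNC was at 4.49, 5.53 and 1.79 CPM, and its 75 counts under DHT were the fewest of the members. PEG10 under DHT was 1.74-fold below bicalutamide (1.4 to 2.16), the smallest margin of the 10 members in that comparison.

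**Figure D1:**
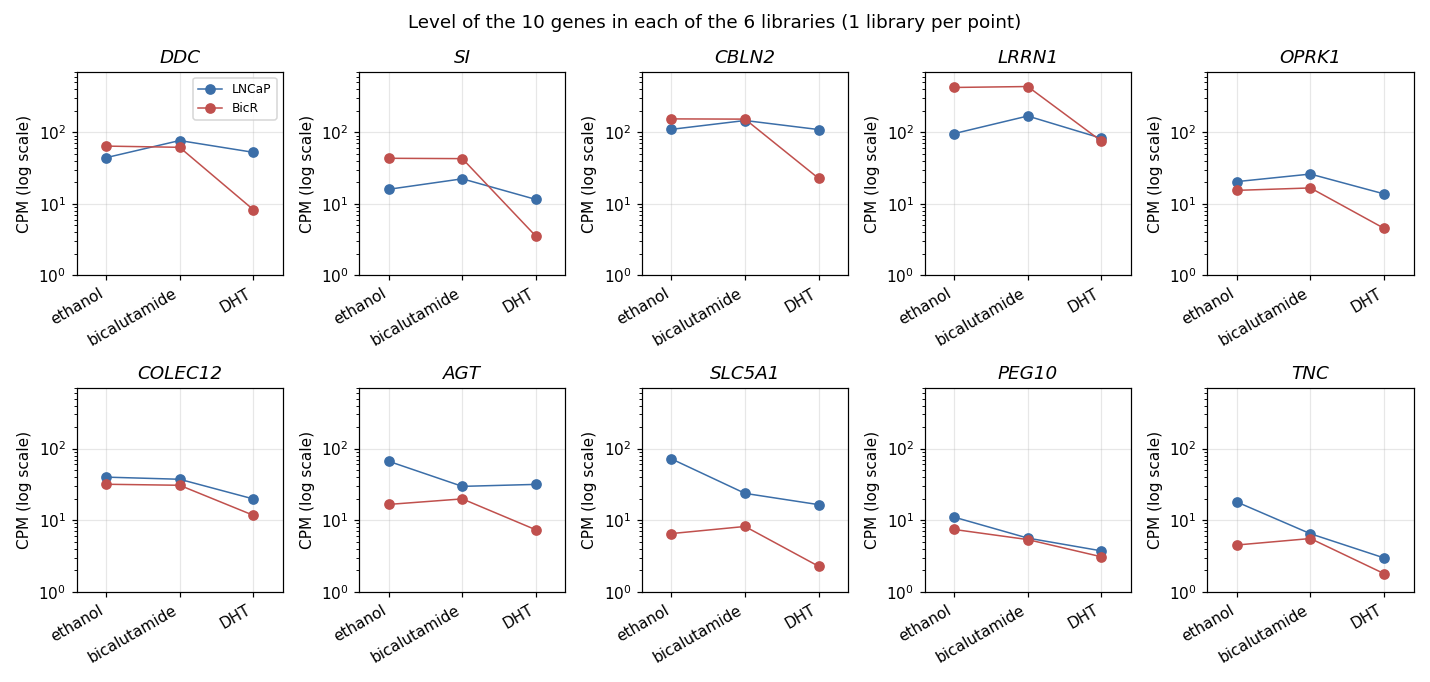
Level of each member in CPM (log axis) under ethanol, DHT and bicalutamide, with 1 point per library and the lines joining the libraries of LNCaP or of BicR. The BicR DHT point is the lowest of the 6 for all 10 members, while DDC in LNCaP is higher under DHT (52.6 CPM) than under ethanol (44.2).

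Length-scaled levels, in the authors' RPKM (reads scaled to gene model length and to depth), allow the members to be ordered. In BicR under ethanol LRRN1 was the highest at 77.9 RPKM, then CBLN2 at 37.4 and DDC at 21.2. COLEC12 was at 7.12, SI at 5.07 and AGT at 4.52 RPKM, and TNC was the lowest at 0.415. Under DHT LRRN1 (12.9 RPKM), CBLN2 (5.11) and DDC (2.55) remained the 3 highest of the set, and DDC stood next to COLEC12 at 2.43. SI moved from the fifth to the seventh place, at 0.383 RPKM. In LNCaP under ethanol CBLN2 led at 24.5 RPKM, with AGT at 16.6, LRRN1 at 16.2 and DDC at 13.4. SLC5A1, at 0.905 RPKM in BicR under ethanol, was at 9.18 RPKM in LNCaP. With 1 library per condition, the order of near neighbours such as AGT and LRRN1 in LNCaP has no replicate check.

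LNCaP shared the lower values under DHT for some members and not for others. Against ethanol, 4 of the 10 were at least 2-fold lower on log2(CPM + 1), against 1.19% of the genes tested: TNC, SLC5A1, PEG10 and AGT. None was at least 2-fold higher (1.4%). The median of the members was -0.76 on that scale, and that of all genes was 0.012. The members are taken here in 2 groups by their values in the lines, a grouping made after the values were seen and therefore a description.

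DDC, SI, CBLN2, LRRN1 and OPRK1 were much lower under DHT than under ethanol in BicR, and at most 1.48-fold lower in LNCaP. DDC was at 44.2 CPM under ethanol, 52.6 under DHT and 76.8 under bicalutamide in LNCaP, so DHT was 1.19 times ethanol (1.12 to 1.26). CBLN2 was at 110, 109 and 146 CPM in that order, a DHT to ethanol ratio of 0.993 (0.957 to 1.03) that did not differ from 1 beyond counting error. LRRN1 was at 96.0, 82.7 and 169 CPM, 1.16-fold lower under DHT than under ethanol (1.11 to 1.21). SI, at 16.0, 11.5 and 22.4 CPM, was 1.39-fold lower (1.25 to 1.54), where BicR had 12.3-fold. OPRK1, at 20.5, 13.8 and 26.1 CPM, was 1.48-fold lower (1.35 to 1.63). In LNCaP all 5 of these genes were highest under bicalutamide.

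TNC, SLC5A1, PEG10, AGT and COLEC12 were lower under DHT than under ethanol in both lines. TNC was at 17.9 CPM under ethanol, 2.96 under DHT and 6.46 under bicalutamide in LNCaP, 6.05-fold lower under DHT (5.11 to 7.2) against 2.51-fold in BicR (1.93 to 3.3). SLC5A1 was at 71.8, 16.5 and 23.7 CPM in the same order, 4.36-fold lower (4.05 to 4.7) against 2.87-fold in BicR (2.28 to 3.64). PEG10 was at 11.0, 3.72 and 5.61 CPM, 2.96-fold lower (2.52 to 3.5) against 2.41-fold (1.97 to 2.96). For these 3 genes DHT lay further below ethanol in LNCaP than in BicR. AGT was at 66.5, 31.6 and 29.6 CPM, 2.1-fold lower (1.98 to 2.23), and COLEC12 at 39.9, 19.8 and 37.3 CPM, 2.02-fold lower (1.87 to 2.17).

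**Figure D2:**
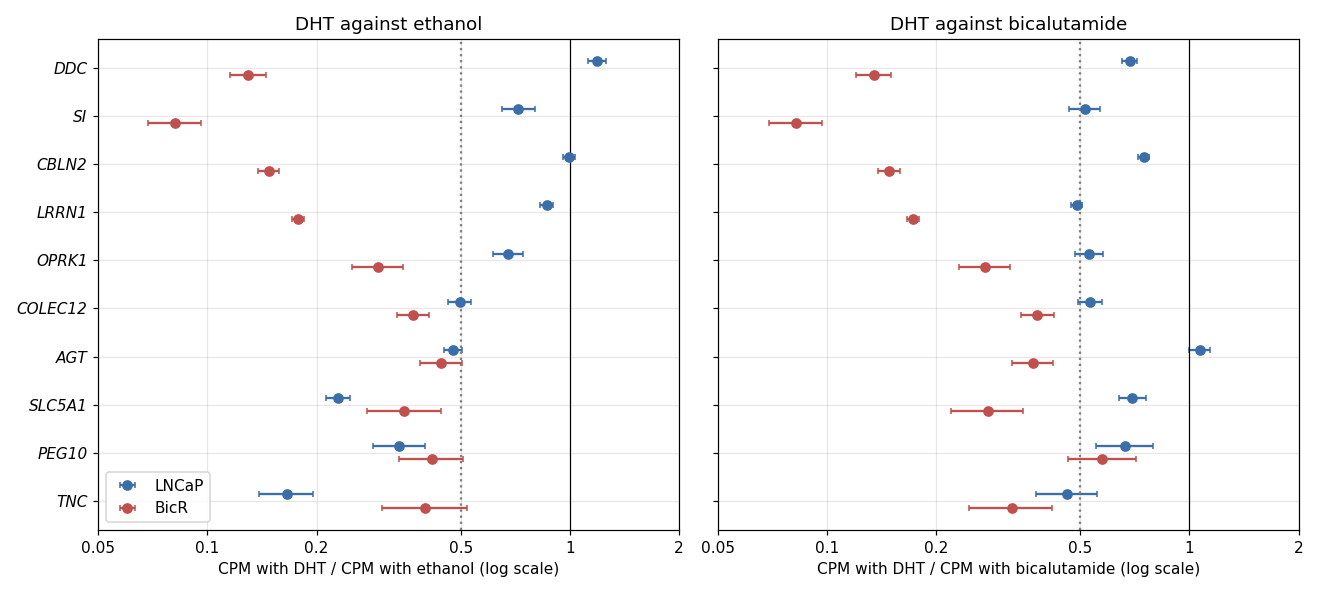
Ratio of DHT to ethanol and of DHT to bicalutamide for each member in BicR and in LNCaP (log axis), with bars for exact 95% counting intervals of 1 library against 1 and a dotted line at a 2-fold lower level. In BicR SI has the lowest ratio of the 10 members, 12.3-fold below ethanol, and in LNCaP AGT moves from 2.1-fold lower against ethanol to a ratio of 1.07 against bicalutamide.

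The LNCaP values depended on which library stood as the control. In the LNCaP ethanol library SLC5A1, TNC, AGT, PEG10 and COLEC12 were at their highest level of all 6 libraries. That library also stood apart in HSPA5, the chaperone BiP of the endoplasmic reticulum, which took 0.79% of its counts against 0.131% to 0.164% elsewhere. The part of that in the members' values was not tested. Against bicalutamide, 1 of 10 members was at least 2-fold lower under DHT in LNCaP on that log scale (LRRN1, background 0.893%) and 0 were at least 2-fold higher (1.58%), with a median of -0.71 on log2(CPM + 1).

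As a ratio of CPM, against bicalutamide, TNC was 2.18-fold lower under DHT in LNCaP (1.8 to 2.64, its low level keeping it inside 2-fold on the log scale), SLC5A1 1.44-fold (1.32 to 1.57) and PEG10 1.51-fold (1.26 to 1.81), each less than against ethanol. AGT had a ratio of 1.07 (0.995 to 1.14), which did not differ from 1 beyond counting error. DDC went the other way, from higher under DHT against ethanol to 1.46-fold lower against bicalutamide (1.39 to 1.53). LRRN1 was 2.05-fold lower (1.97 to 2.12), SI 1.94-fold (1.76 to 2.15) and OPRK1 1.89-fold (1.73 to 2.07), each more than against ethanol. CBLN2 was 1.34-fold lower (1.29 to 1.38) and COLEC12 1.88-fold lower (1.75 to 2.03), the latter near its value against ethanol. In BicR 9 of 10 were at least 2-fold lower against bicalutamide (background 1.04%, median -1.58) and 0 at least 2-fold higher (1.43%). This comparison shares the BicR DHT library that chose the members, so it is a description and no separate support. TNC was among the 9 and PEG10, at -0.64, was not, the reverse of the comparison with ethanol. The differences ran from SI at 12.2-fold lower (10.3 to 14.5) to PEG10 at 1.74-fold.

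The gap between the lines, the log2 ratio of DHT to ethanol in BicR minus that in LNCaP, had no replicates and was not tested beyond counting error. The members were chosen for low values in the BicR DHT library, which favours gaps below 0 against either control. The gaps and their counting SE are therefore a description. It was -3.20 for DDC (counting SE 0.091), -3.15 for SI (0.14), -2.75 for CBLN2 (0.056), -2.28 for LRRN1 (0.041) and -1.19 for OPRK1 (0.14). It was -0.11 for AGT (0.11) and 0.30 for PEG10 (0.19), within 2 counting SE of 0. For SLC5A1 it was 0.61 (0.18) and for TNC 1.27 (0.23), the lower ratio being that of LNCaP. Against bicalutamide the gap was below 0 for all 10 members, so for these 3 genes, PEG10, SLC5A1 and TNC, its sign turned with the control. For PEG10 it was then -0.21, for TNC -0.51 and for SLC5A1 -1.33.

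Bicalutamide and ethanol were compared over both lines with edgeR's quasi-likelihood test (cell line plus treatment, 6 libraries), a contrast that shares the ethanol libraries with the choice of members. Of 13885 genes 0 passed at a Benjamini-Hochberg adjusted p under 0.05 (0.0%). At an unadjusted p under 0.05, 52 genes were higher and 89 lower, and DESeq2 and limma also called 0. Of the members 0 passed and 1 had an unadjusted p under 0.05, PEG10, with a log2 fold change of -0.72 (SE 0.26). Its Benjamini-Hochberg adjusted p by edgeR's quasi-likelihood test was 0.996. PEG10 was lower under bicalutamide than under ethanol in both lines. Without the BicR ethanol library, 102 genes were called higher and 95 lower, DDC and SLC5A1 among them (1.42% of the genes).

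Within the lines the members differed in this contrast. In LNCaP LRRN1 under bicalutamide was 1.76 times ethanol (1.7 to 1.83), DDC 1.74 times (1.65 to 1.83), SI 1.4 times (1.28 to 1.54) and CBLN2 1.33 times (1.28 to 1.38). SLC5A1 was at 0.33 of ethanol (0.309 to 0.352), TNC at 0.36 (0.317 to 0.408) and AGT at 0.446 (0.42 to 0.474). These were the 3 members at least 2-fold lower on log2(CPM + 1) (background 1.52%), and 0 were at least 2-fold higher (1.08%). In BicR 0 of 10 reached 2-fold in either direction (background 0.0% and 0.0%), and the ratios ran from 0.722 for PEG10 (0.615 to 0.847) to 1.26 for SLC5A1 (1.09 to 1.46). The 5 members with the lowest ratios of DHT to ethanol in BicR, which were highest under bicalutamide in LNCaP, had ratios of bicalutamide to ethanol of 0.962 to 1.08 in BicR.

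The lines also differed in the members' levels without added androgen. The 4 libraries of ethanol and bicalutamide were tested for a difference of line with edgeR's quasi-likelihood test, with ethanol and bicalutamide standing as the pair of libraries of a line. The choice of members had used the ethanol libraries, so the members' p-values are not independent of it and are given as a description. The test called 32 genes higher and 23 lower in BicR (0.396% of those tested), and 0 of the members, of which 6 had an unadjusted p under 0.05. DESeq2 called 5 members (AGT, LRRN1, SI, SLC5A1 and TNC) and 6.9% of the genes tested. Without the LNCaP ethanol library edgeR called 2 members higher and 5 lower, beside 33.8% of all genes, and without the LNCaP bicalutamide library 4 and 6, beside 58.7%. Without the BicR ethanol library it called 0 members (0.166% of genes), and without the BicR bicalutamide library 0 (0.158%).

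LRRN1 was at 424 and 437 CPM in BicR and 96.0 and 169 in LNCaP (log2 fold change 1.70, SE 0.28, edgeR Benjamini-Hochberg adjusted p = 0.0878). SI was at 43.4 and 42.9 CPM in BicR and 16.0 and 22.4 in LNCaP (1.17, SE 0.19, edgeR adjusted p = 0.0868). SLC5A1 was at 6.49 and 8.16 CPM in BicR and 71.8 and 23.7 in LNCaP (-2.71, SE 0.54, edgeR adjusted p = 0.114). The spread within LNCaP was wide for these genes. AGT was lower in BicR in both libraries (-1.40, SE 0.39, edgeR adjusted p = 0.177). DDC, at 0.058 (SE 0.26, edgeR adjusted p = 0.914), and CBLN2, at 0.26 (SE 0.17, edgeR adjusted p = 0.432), had the smallest differences.

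With treatment added as a term, 517 genes passed (3.72%; 1.61% higher and 2.12% lower), and 4 members were among them. LRRN1 (1.75, edgeR Benjamini-Hochberg adjusted p = 0.00272) and SI (1.19, edgeR adjusted p = 0.0103) were higher in BicR. SLC5A1 (-2.50, edgeR adjusted p = 0.00417) and AGT (-1.29, edgeR adjusted p = 0.0354) were lower. The call of a line difference for these 4 genes therefore rested on the model. The bicalutamide libraries were part of these tests, so their ratios are no separate support. In them BicR was 2.58 times LNCaP for LRRN1 (2.52 to 2.65) and 1.91 times for SI (1.78 to 2.06). For SLC5A1 the ratio was 0.345 (0.307 to 0.386) and for AGT 0.668 (0.616 to 0.725).

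The order of the lines differed between treatments for some members. Under ethanol SI in BicR was 2.71 times LNCaP (2.5 to 2.94), and under DHT it was 0.306 of LNCaP (0.254 to 0.367). LRRN1 was 4.42 times LNCaP under ethanol (4.28 to 4.56) and 0.912 under DHT (0.871 to 0.955), so the level of BicR came down close to that of LNCaP. DDC went from 1.45 times LNCaP to 0.158, and CBLN2 from 1.4 times to 0.208 (0.194 to 0.223). SLC5A1 was lower in BicR under each treatment, at 0.0904 of LNCaP under ethanol, 0.138 under DHT and 0.345 under bicalutamide. Under DHT all 10 members had lower values in BicR than in LNCaP, and 6 were at least 2-fold lower (background 4.7%) and 0 at least 2-fold higher (2.81%), but the choice of members had used the BicR DHT library. Under ethanol 3 were at least 2-fold lower (3.88%) and 2 at least 2-fold higher (2.62%), and under bicalutamide 1 was lower (1.27%) and 1 higher (0.684%).

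**Figure D3:**
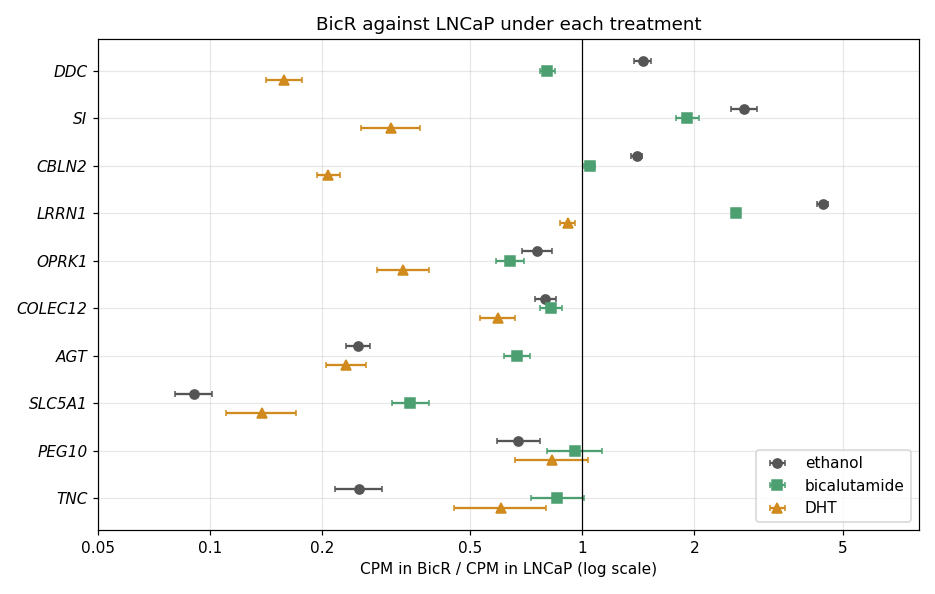
Ratio of BicR to LNCaP for each member under ethanol, DHT and bicalutamide (log axis), with exact 95% counting intervals of 1 library against 1. SI passes from 2.71 under ethanol to 0.306 under DHT, whereas SLC5A1 stays below 1 under all 3 treatments.

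The other genes of the members' pathways mostly did not share the differences under DHT. Of 22 other tested genes listed as androgen-repressed in prostate cells, 4 were at least 2-fold lower and 3 at least 2-fold higher in BicR, with a median of -0.063 on log2(CPM + 1). For this and the lists below, the shares over all genes tested in BicR were 0.922% lower and 1.45% higher. In LNCaP they were 1.19% and 1.4%. ST7, a candidate tumour suppressor, was at 308 CPM under ethanol and 76.8 under DHT in BicR, and at 220 and 254 in LNCaP. CXCR7, a scavenging chemokine receptor, was at 506 and 164 CPM in BicR and 378 and 417 in LNCaP. Against ethanol both were, like DDC and CBLN2, lower under DHT in BicR and not in LNCaP. Against bicalutamide the likeness in LNCaP did not hold. There DDC and CBLN2 were lower under DHT, at ratios of 0.685 and 0.747. ST7 and CXCR7 were not, at 222 and 386 CPM under bicalutamide in LNCaP. MET, the receptor of hepatocyte growth factor, was at 10.2 and 2.69 CPM in BicR. UGT2B28 and UGT2B11, which conjugate androgens and resemble each other so closely that reads can be split between them, were higher under DHT in BicR at 10.7-fold (7.07 to 16.9) and 4.6-fold (3.97 to 5.36). UGT2B15 and UGT2B17 of the same family, named after their values were seen, were at -1.33 and -0.59 on log2(CPM + 1) in BicR. In LNCaP 1 of the 22 was lower against ethanol, CLU at 235 and 115 CPM, and 1 was higher, TMEFF2 at 16.1 and 37.4. Under bicalutamide in LNCaP CLU was at 102 CPM and TMEFF2 at 14.2. Against that control CLU was not lower under DHT, at a ratio of 1.12 (1.08 to 1.17), and TMEFF2 was again higher.

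Some partners of CBLN2 were also lower under DHT in BicR. NRXN2, a presynaptic neurexin of the kind to which cerebellins bind, was 1 of 2 genes at least 2-fold lower under DHT among 4 other tested genes of the cerebellin list. It was at 11.8 CPM under ethanol and 5.17 under DHT in BicR, a ratio of 0.439 (0.374 to 0.513). In LNCaP its ratio to ethanol was 1.13 (0.995 to 1.28), which did not differ from 1 beyond counting error, as for CBLN2 itself. Against bicalutamide this likeness in LNCaP did not hold. There NRXN2 had a ratio of 1.31 (1.15 to 1.5) and CBLN2 one of 0.747. In BicR NRXN2 was at -0.72 on log2(CPM + 1) against bicalutamide, short of 2-fold. NRXN3 had a ratio of DHT to ethanol of 0.845 in BicR (0.662 to 1.07), within counting error of 1.

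Partners of the enzymes and transporters did not follow them. Of 9 other tested genes of monoamine metabolism 0 reached 2-fold in either line. TH, which makes the dopamine precursor that DDC uses, had 0 counts in all 6 libraries, where a 0 allows up to 3 counts. DBH, which turns dopamine into noradrenaline, had at most 5 counts, while MAOA, which breaks monoamines down, was at 575 CPM under ethanol and 713 under DHT in BicR. The opioid precursor PENK had 0 counts in every library. Of 5 other tested brush border genes 0 reached 2-fold. MGAM, another disaccharidase of the brush border, had 0 to 11 counts, against 148 to 2260 for SI. The intestinal factor CDX2 had at most 9 counts. SLC2A1, the glucose transporter GLUT1, was 1.39 times ethanol under DHT in BicR (1.33 to 1.46) and at 0.747 in LNCaP (0.721 to 0.775). In LNCaP it was at 131 CPM under ethanol, 98.0 under DHT and 84.8 under bicalutamide. Its direction under DHT in LNCaP therefore turned with the control.

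PEG10 shares its promoter region with SGCE, which codes for epsilon-sarcoglycan. SGCE had 91 counts under ethanol, 14 under DHT and 37 under bicalutamide in LNCaP, a ratio of DHT to ethanol of 0.142 (0.0745 to 0.25), the same order of libraries as PEG10. In BicR SGCE had 8, 7 and 12 counts, and a difference was not detectable at this depth. Among 7 other tested genes around tenascin, ITGAV, an integrin subunit, was the 1 past 2-fold, at 94.9 CPM under ethanol and 203 under DHT in BicR. FN1, fibronectin, was at 2099 and 1264 CPM in BicR. Of 6 other tested genes of the angiotensin system 0 reached 2-fold, and AGTR1, the receptor of angiotensin II, had 0 counts everywhere. SCARA3, a scavenger receptor like COLEC12, was at 12.1 and 5.51 CPM in BicR, a ratio of 0.456 (0.391 to 0.531), and at 1.16 times ethanol in LNCaP (1.01 to 1.32). SLITRK6, which like LRRN1 carries leucine-rich repeats, was higher under DHT in BicR (4.38 to 9.92 CPM) and lower in LNCaP (34.2 to 13.8).

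Markers set the members' levels in context. Androgen-induced genes were higher under DHT, 15 of 15 in BicR and 12 of 15 in LNCaP by at least 2-fold. FKBP5, a cochaperone of HSP90, was 12.6-fold higher in BicR (12.1 to 13.1) and 3.07-fold in LNCaP (2.92 to 3.22). KLK3, which codes for prostate-specific antigen, was 3.87-fold and 3.75-fold higher. The luminal markers KRT8 (603 to 1218 CPM), KRT18 and HOXB13 were high in every library. The basal KRT5 had at most 4 counts, the immune PTPRC and the mesenchymal COL1A2 0 counts, and the neuroendocrine CHGA at most 2. Each of these lists was mixed, with other markers well above the floor. The basal ITGA6 had 3558 to 5521 counts and the mesenchymal VIM 1145 to 2773. CD68 of the immune list had 473 to 1426, and the neuroendocrine SYT4 29742 to 127513. The summed level of the mesenchymal list was 121 CPM under ethanol, 80.9 under DHT and 116 under bicalutamide in BicR, and 100 to 125 in LNCaP, with 1 of 10 tested genes past 2-fold (MYLK, 27.2 and 10.5 CPM). The summed immune list was at 32.3 CPM under ethanol, 20.02 under DHT and 32.8 under bicalutamide in BicR, with 0 of 4 past 2-fold. The mesenchymal and immune sums moved with the members in BicR, and the sums of the other marker lists did not. A sum follows its highest genes, and the medians of the tested genes gave another picture. For DHT minus ethanol on log2(CPM + 1) in BicR, the basal median was -0.447, the mesenchymal -0.209 and the immune -0.633. The neuroendocrine median was -0.022, with ENO2 at -0.69, NCAM1 at -0.68 and SYT4 at -0.02, and the luminal median was 0.62. Under ethanol, DHT and bicalutamide in BicR, the basal sum was at 147, 149 and 150 CPM. The neuroendocrine sum was at 821, 773 and 774 CPM in that order, and the luminal sum at 6735, 15847 and 6941. The part of these sums in the members' values was not tested.

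**Figure D4:**
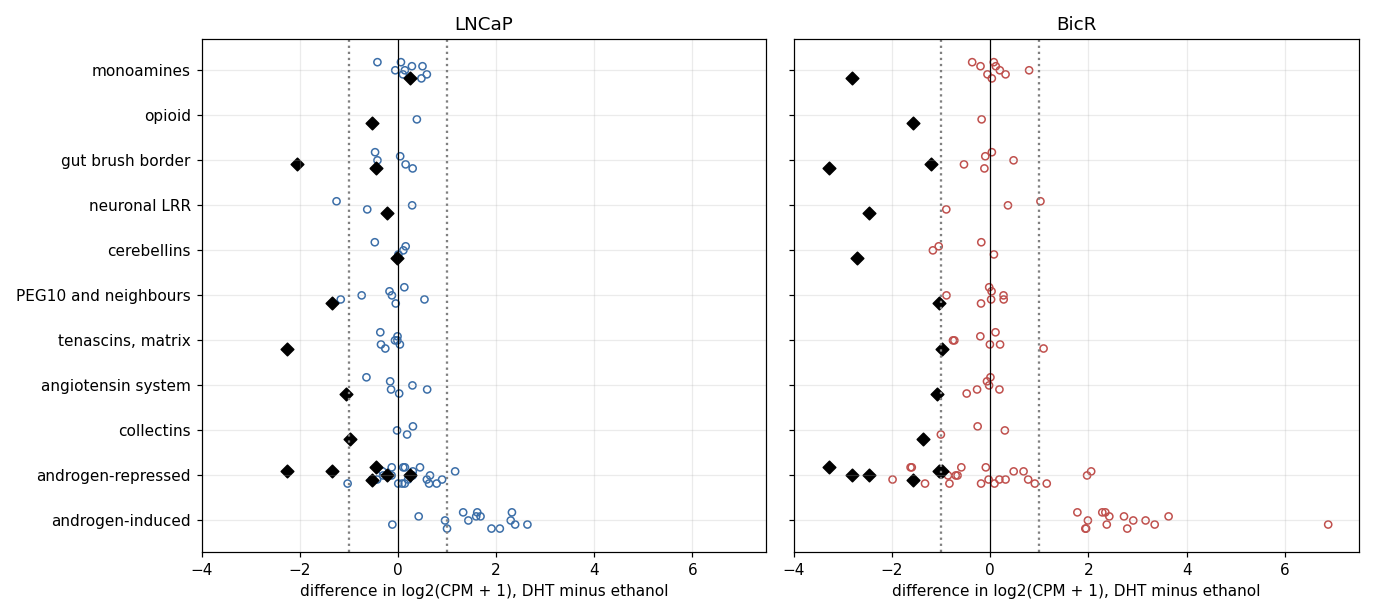
Difference of DHT from ethanol on log2(CPM + 1) in BicR and in LNCaP for the members and for the other tested genes of each pathway list, with black diamonds for members, open circles for other genes and dotted lines at a 2-fold difference. The members have a median of -1.47 in BicR and -0.76 in LNCaP, and the androgen-induced genes medians of 2.42 and 1.62.

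Across the 6 libraries the genes most like each member were found by Pearson's r of log2(CPM + 1) among 2485 genes that varied by at least 2-fold. The points share the libraries that chose the members, so r is a description. SLITRK3 (r = 0.997) was most like DDC, at 118 CPM under ethanol and 24.5 under DHT in BicR. ST8SIA4 (0.996) and EGR1 (0.991) were most like CBLN2, and AMIGO2 (0.994) and NINL (0.991) most like OPRK1. SERPINI1 (0.993) and PLD1 (0.987) were most like SI, and RIMS4 (0.991) and PCDH15 (0.984) most like LRRN1. SYT11 and MCAM, both 0.997, were most like SLC5A1, and like it they were highest in LNCaP under ethanol. PECR and CCND2, both 0.991, were most like TNC, C17orf103 (0.999) most like AGT, SLC35F3 (0.997) most like COLEC12, and TIMP3 (0.965) most like PEG10. Among the members DDC and CBLN2 (0.991) and SLC5A1 and AGT (0.984) were the closest pairs, whereas LRRN1 and SLC5A1 were at -0.209.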

How the data were processed

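Total RNA of LNCaP and BicR cells was extracted with ISOGEN, per the labels' protocols. The authors deposited raw counts per gene symbol and, beside them, RPKM values scaled to gene model length and depth, per the file headers. Per the submitters' processing notes, the build was named as hg19. What aligner, counter and annotation were used, and whether strand was, is not given in the sources used here, so reads of overlapping or near-identical genes may be shared.

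The members and the gene lists were chosen with earlier results of these data known. TMM scaling was done with edgeR 4.0.16 under R 4.3.3, and a mean count of 20 or more kept 13885 genes; 2988 of the 21512 genes were at 0 in every library. Differences within a line, 1 library against 1, were described on log2(CPM + 1), where low genes show less than their true change, and counted from 2-fold. Ratios carry exact 95% intervals conditioned on the summed count. Line and bicalutamide effects were tested 2-sided by edgeR's quasi-likelihood method, calling a gene at a Benjamini-Hochberg adjusted p under 0.05. Nothing in the labels says that libraries came from separate cultures, so the p-values speak for the spread among these libraries only.

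All 10 members were named, with up to 3 genes per list and direction past 2-fold, pathway neighbours, and the 2 genes most like each member. Some genes picked by this rule are not reported here. Alternatives were other pseudocounts, RPKM with limma 3.58.1, DESeq2 1.42.0, other filters and models, the other control, and leaving out a library. The scripts were tested on simulated data.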

Additional observations from a re-analysis of the deposited data

Results flagged for a closer look

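In 4 instances the lines lay on opposite sides of a ratio of 1 beyond counting error. With 1 library on each side, the difference between the lines was not tested. The ratio of DHT to ethanol for DDC was 0.13 in BicR (0.116 to 0.145) and 1.19 in LNCaP (1.12 to 1.26). The ratio of bicalutamide to ethanol was 1.23 in BicR (1.03 to 1.47) and 0.36 in LNCaP (0.317 to 0.408) for TNC, 1.26 (1.09 to 1.46) and 0.33 (0.309 to 0.352) for SLC5A1, and 1.19 (1.09 to 1.31) and 0.446 (0.42 to 0.474) for AGT. These last 3 share the LNCaP ethanol library, in which HSPA5 took 0.79% of the counts.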

How the results depend on the processing

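The labels give no replicate numbers, so no fit with a replicate block was made; the fit with a treatment term matches the lines by treatment. The number of genes at least 2-fold lower moved most with the scale. In BicR it was 128, and 408 with a pseudocount of 0.1 CPM, 55 with 5 CPM and 69 on RPKM. In LNCaP it was 165, and 304, 84 and 76 in that order. Between the lines under DHT it was 652, and 1087, 314 and 417. Members at least 2-fold lower numbered 9 in BicR and 5 on RPKM. In LNCaP they numbered 4, with 2 at a pseudocount of 5 CPM, 2 on RPKM and 1 against bicalutamide. Other list genes lower numbered 9 in BicR, with 15 and 5 at pseudocounts of 0.1 and 5 CPM, and 3 in LNCaP, with 5 at 0.1 CPM and 1 against bicalutamide. AGT in LNCaP turned from lower to 0.089 higher on log2(CPM + 1) against bicalutamide.

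For the lines without androgen, 32 genes were higher and 23 lower by edgeR. DESeq2 gave 380 and 578, all genes with any count 85 and 87, a treatment term 223 and 294, and all 6 libraries 219 and 395. Members called higher numbered 0, with 2 by DESeq2, 1 with any count and 2 with the treatment term, and members called lower 0, with 3 by DESeq2, 2 with the treatment term and 2 with all 6 libraries. Leaving out 1 library gave 17 to 3945 genes higher and 3 to 4211 lower, and 0 to 4 members higher and 0 to 6 lower; without either LNCaP library the spread rested on the BicR pair. With all 6 libraries the log2 fold change turned to -0.74 for DDC and -0.52 for CBLN2. Leaving out 1 library, it ran from -0.28 to 0.51 for DDC and from -0.78 to 0.19 for PEG10.

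For bicalutamide against ethanol, leaving out 1 library gave 0 to 102 genes higher and 0 to 95 lower, with 0 to 1 member in each direction. The fold change of 9 members crossed 0, with ranges of -0.52 to 1.48 for DDC, -0.10 to 0.60 for OPRK1, -0.52 to 1.25 for SI, -0.28 to 1.24 for LRRN1, -0.48 to 1.10 for CBLN2, -1.35 to 0.18 for TNC, -1.47 to 0.18 for SLC5A1, -1.19 to 0.28 for AGT and -0.21 to 0.055 for COLEC12. Where no value above shows it, the cause was not tested. A fold on few counts, such as SGCE in BicR, is limited by depth.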
